A study of Populus davidiana with 6 samples.

Results

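In the leaf of the aspen Populus davidiana, 38 loci were near silent in control plants and expressed in every sample of plants that had been left in open air. They were chosen from 40537 loci by their values alone: a span of at least 300 bases, under 1 FPKM in each of the 3 control samples and at least 2 FPKM in each of the 3 air-dried samples. FPKM is a fragment count scaled to the length of the transcript and the size of the library, and it was summed over the transcripts of a locus. The choice used the same comparison that the values below describe, so the differences between the groups are given as a description, with no test.

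The leaves came from saplings of Palgong1, a cultivar listed as sensitive to drought, propagated in sterile culture from internodes on a medium with sucrose and an auxin. At about 6 weeks, plants of the air-dried group were lifted from the medium, rinsed with sterile water and exposed to open air for roughly 10 min, so lifting, washing and drying cannot be told apart. Control plants of the same age gave the other group, and the sources used here do not say how they were handled. Each group held 3 samples, and no label says whether they came from separate plants. No gene modification or added agent is named for either group. In whole leaf, fewer cells of a type and less RNA per cell cannot be told apart.

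Drying leaves lose turgor within minutes. As background, plants answer water loss through the hormone abscisic acid, which closes stomata and activates kinases and transcription factors, and mechanical handling sets off fast responses through calcium, jasmonate and ethylene. Genes of these responses are often kept at a very low level until a signal arrives, so loci that go from near silence to expression are a usual place to look for inducible genes. The deposited tables give no gene name for any transcript, so no role is assigned to any of the 38 loci, and markers of leaf tissue could not be checked here. No sequence of these loci was available to print.

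The label of near silence held in a limited sense. Of the 38 loci, 24 had a value above 0 in every control sample, 14 were listed at 0 in control replicate 1, 2 of these were also listed at 0 in control replicate 2, and 0 were listed at 0 in control replicate 3. An exact 0 in these files can be a failed estimate. Control replicate 1 listed more loci at 0 than the other controls did. Over all loci of at least 300 bases, 37.4%, 29.1% and 27.9% were at 0 in control replicates 1, 2 and 3. Among loci with values above 0 and under 1 FPKM in both other controls, 48.3% were at 0 in control replicate 1. The same share was 4.26% for control replicate 2 and 2.52% for control replicate 3. These shares rest on different sets of 4315, 1877 and 1864 loci. The last 2 sets leave out every locus at 0 in control replicate 1, which widens the gap. Only 11 of the 38 loci stayed under 0.5 FPKM in all 3 controls, and 9 had a control value of at least 0.9 FPKM.

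Control replicate 1 departed from the other libraries, with a summed FPKM of 24097700 over loci of at least 300 bases against 942883 to 1258020 in the other 5. Size factors over loci expressed in all samples nevertheless lay between 0.981 and 1.02. Fragment totals were not given. The low values of single-transcript loci fell at preferred ratios between samples, from which the FPKM worth of 1 fragment was 1.20 to 1.47 times as large in the other 5 samples as in control replicate 3. The libraries were also read as 2 sets, control replicates 1 and 2 with air-dried replicate 1, and control replicate 3 with air-dried replicates 2 and 3. No label gives these sets, which were set up after the data were seen. The share of ratios at the preferred value was 11.9% to 25.4% within a set and 7.59% to 13.3% between sets, so the ranges overlapped and the sets are not sharply apart. Both sets hold both groups. The number of fragments behind a value near 1 FPKM was not measured, and no counting interval can be given.

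Near silence in the control leaf was common and its loss after air-drying was rare. Of 15421 loci of at least 300 bases that stayed under 1 FPKM in all controls, 555 reached 0.5 FPKM in each air-dried sample, 138 reached 1 FPKM, 38 (0.246%) reached 2 FPKM and 5 reached 5 FPKM. The mirrored count, loci under 1 FPKM in each air-dried sample, began from 15844 loci. Of these, 548 reached 0.5 FPKM in each control, 123 reached 1 FPKM, 20 (0.126%) reached 2 FPKM and 6 reached 5 FPKM. The counts in the 2 directions were close at 0.5, 1 and 5 FPKM and stood at 38 against 20 at the level used here. The gap varied with the libraries used. Without control replicate 3, 68 loci met the rule and 35 the mirrored one, and without control replicate 1, 43 and 37. With any other library left out, 45 to 50 met the rule and 22 to 30 the mirrored one. The set of control replicates 1 and 2 with air-dried replicate 1 gave 152 and 94. The other set, used alone, gave 84 and 92, the reverse order. The plot of highest control against lowest air-dried values shows the 38 loci at the upper left of the cloud of all loci.

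**Figure D1:**
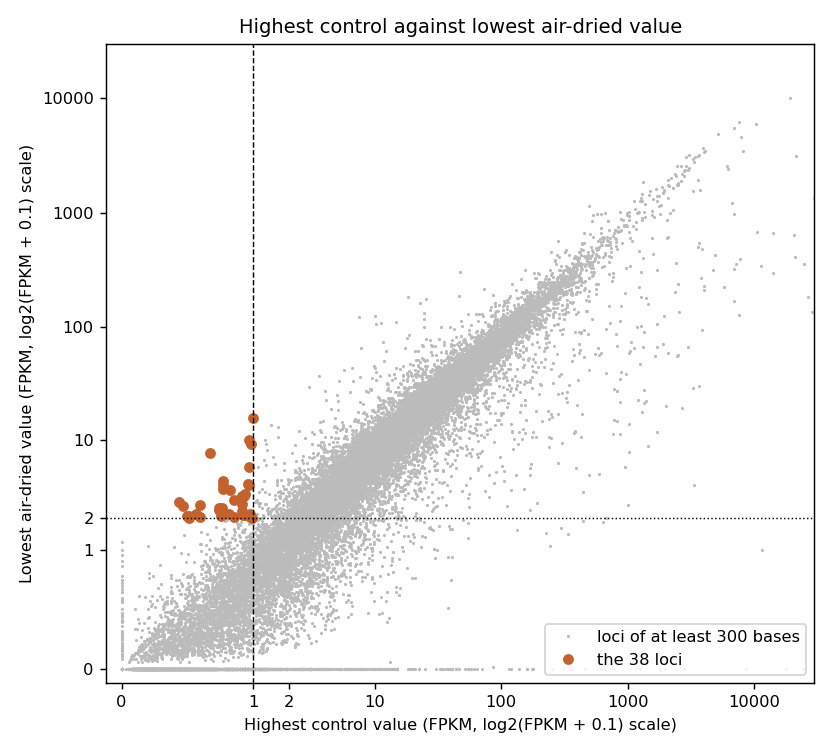
Each point is a locus of at least 300 bases, placed by its highest value in the 3 controls (x, FPKM on a log2(FPKM + 0.1) scale) and its lowest value in the 3 air-dried samples (y, same scale); the dashed line marks 1 FPKM, the dotted line 2 FPKM, and the few loci above the axis range are not drawn. The 38 loci, in orange, fill the corner left of 1 and above 2 FPKM, with 1 of them above 15 FPKM.

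The highest of the 38 loci was POPTR_0006s23480, a single annotated transcript on the plus strand of chromosome 6 (22192804 to 22193878). It had 0.0756, 0.990 and 0.708 FPKM in control replicates 1, 2 and 3, and 20.7, 18.6 and 15.8 FPKM in air-dried replicates 1, 2 and 3. Its lowest air-dried value was 15.9 times its highest control value. In the control mean, 0.591 ± 0.468 FPKM (SD, n = 3), it stood above 39.8% of all loci of at least 300 bases, and in the air-dried mean, 18.4 ± 2.495 FPKM, above 78.7% of them.

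POPTR_0815s00200 came next. This locus lies on the plus strand of scaffold_815 (486 to 2077), a sequence not placed on a chromosome, with 1 annotated transcript. Its values were 0.452, 0.921 and 0.580 FPKM in the controls and 9.98, 14.5 and 13.7 FPKM in the air-dried samples, from 0.651 ± 0.243 to 12.7 ± 2.43 FPKM (n = 3 per group). Only these first loci are named by identifier, as no table pairs identifiers with names; all others are given by position in the coordinates of the deposited tables; the sources used here name no genome build for them.

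The same scaffold held a second of the 38 loci, 4745 bases further on and on the same strand (6823 to 8457). Its values were 0, 0.183 and 0.0522 FPKM in the controls and 2.91, 2.82 and 3.34 FPKM in the air-dried samples. Between them no other locus of at least 300 bases was listed. These were the only 2 of the 38 loci that were direct neighbours; the next closest 2, on chromosome 16, lay 928 kb apart. Whether they are copies of one gene whose reads could be shared was not tested, since no sequence was used here.

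On chromosome 16, a minus-strand locus (12811596 to 12812444) was listed at 0, 0.950 and 0.402 FPKM in the controls and at 13.4, 9.30 and 11.5 FPKM in the air-dried samples. On chromosome 2, a plus-strand locus with 2 transcripts (5450684 to 5453302) had 0, 0.399 and 0.378 FPKM against 8.42, 8.06 and 7.71 FPKM. Its lowest air-dried value was 19.3 times its highest control value, the widest such gap among the 38. The annotated transcript carried 89.4% of its air-dried FPKM.

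A chromosome 14 locus (2758585 to 2759967) had 0.782, 0.749 and 0.925 FPKM in the controls and 8.49, 6.19 and 5.78 FPKM in the air-dried samples. These first 5 loci were the ones with at least 5 FPKM in each air-dried sample. Below them the lowest air-dried value of a locus ran from 4.32 FPKM down to 2.01 FPKM, near the limit.

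A locus on scaffold_22 (140392 to 141676) had 0.531, 0.511 and 0.388 FPKM in the controls and 4.32, 5.21 and 4.39 FPKM in the air-dried samples. A newly assembled transcript carried 81.2% of its air-dried FPKM and 72.8% of its control FPKM, and the annotated transcript alone had a mean of 0.874 FPKM in air-dried leaves. The split went by library: the new transcript held over 99% in control replicates 1 and 2 and air-dried replicates 1 and 2, 0.0566% in control replicate 3 and 40.2% in air-dried replicate 3.

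Chromosome 16 held 3 further loci, which makes it, with chromosome 2, the place of 4 of the 38. The first (8315077 to 8315937, plus strand) had 0.397, 0.897 and 0.878 FPKM in the controls and 5.03, 5.65 and 4.08 FPKM in the air-dried samples. The second (4802115 to 4803781, minus strand) had 0.437, 0.532 and 0.339 FPKM against 5.78, 3.96 and 3.70 FPKM, so air-dried replicate 1 was the highest there. The last (9243634 to 9245250, plus strand) was lower, with 0.273, 0.151 and 0.314 FPKM against 2.03, 2.46 and 2.32 FPKM.

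A chromosome 8 locus (6151037 to 6152438, minus strand) had 0.924, 0.342 and 0.348 FPKM in the controls and 4.51, 4.01 and 4.32 FPKM in the air-dried samples. Its high control was replicate 1, unlike the loci listed at 0 there. A chromosome 5 locus (12284555 to 12286159) spread in the same library the other way, with 0.0702, 0.240 and 0.800 FPKM in the controls, while its air-dried values of 3.27, 3.21 and 3.40 FPKM nearly coincided. A chromosome 18 locus (6741407 to 6743740, minus strand) had 0.198, 0.822 and 0.503 FPKM in the controls and 4.05, 3.20 and 3.39 FPKM in the air-dried samples.

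Chromosome 3 held 5 of the 38 loci, the most of any sequence, with 1302 kb or more between neighbours among them. The highest (14945593 to 14946666) had 0.530, 0.341 and 0.434 FPKM in the controls and 3.99, 5.95 and 6.01 FPKM in the air-dried samples. Here air-dried replicate 1 was the lowest library, the reverse of the chromosome 16 locus above. Counted over all 38 loci, air-dried replicate 1 was the highest of its group in 17, replicate 2 in 10 and replicate 3 in 11.

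A locus on scaffold_1939 (2110 to 3380) had 0.852, 0.592 and 0.576 FPKM in the controls and 3.30, 3.55 and 3.74 FPKM in the air-dried samples, nearly all from the annotated transcript. A chromosome 2 locus (12220485 to 12221240, minus strand) had 0.541, 0.680 and 0.361 FPKM in the controls and 3.05, 5.89 and 2.91 FPKM in the air-dried samples. It was 1 of 2 loci whose highest air-dried value was at least 2 times the lowest, here through air-dried replicate 2 alone. The other, also on chromosome 2 (17057322 to 17058406), had 3.30, 2.11 and 4.57 FPKM.

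A 77.1 kb locus on chromosome 7 (4399587 to 4476682, plus strand) was 1 of 2 that merged several annotated models. It was assembled from 3 annotated and 4 new transcripts and had 0.606, 0.626 and 0.397 FPKM in the controls and 3.64, 3.57 and 3.73 FPKM in the air-dried samples. One annotated transcript of 1596 bases carried 68.2% of the air-dried and 63.2% of the control FPKM. A second assembled locus on the same strand covered 79.2% of its span and had a mean of 3.84 FPKM in controls and 5.94 FPKM in air-dried leaves, and reads of the shared span could count for either.

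The lowest control levels belonged to loci further down the order, and these are named after their values were seen. A 570-base locus on chromosome 17 (7582441 to 7583010) was listed at 0 in control replicates 1 and 2 and at 0.206 FPKM in control replicate 3, with 4.11, 2.60 and 3.904 FPKM in the air-dried samples. Another on scaffold_864 (3577 to 4722) was likewise listed at 0, 0 and 0.240 FPKM, with 2.02, 2.38 and 3.31 FPKM after air-drying. One on chromosome 5 (16355550 to 16356577), had 0, 0.240 and 0.0498 FPKM against 2.08, 3.70 and 3.78 FPKM. In these loci the air-dried library with the lowest value differed, replicate 2 in the first and replicate 1 in the others.

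The 23 loci from the 16th downwards, some of them given above, spanned 2.01 to 4.57 FPKM over all their air-dried values, with a median air-dried mean of 2.57 FPKM, and none exceeded 0.977 FPKM in a control. Over the 24 loci above 0 in every control, the ratio of the air-dried to the control mean ran from 3.08 to 31.1 with a median of 6.76. Over all 38, the lowest air-dried value was 2.06 to 19.3 times the highest control value, with a median of 4.78. Even after air-drying most remained at a modest level: the median locus stood above 52.8% of all loci of at least 300 bases in the air-dried mean. The plot of all 38 loci by sample shows the values.

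**Figure D2:**
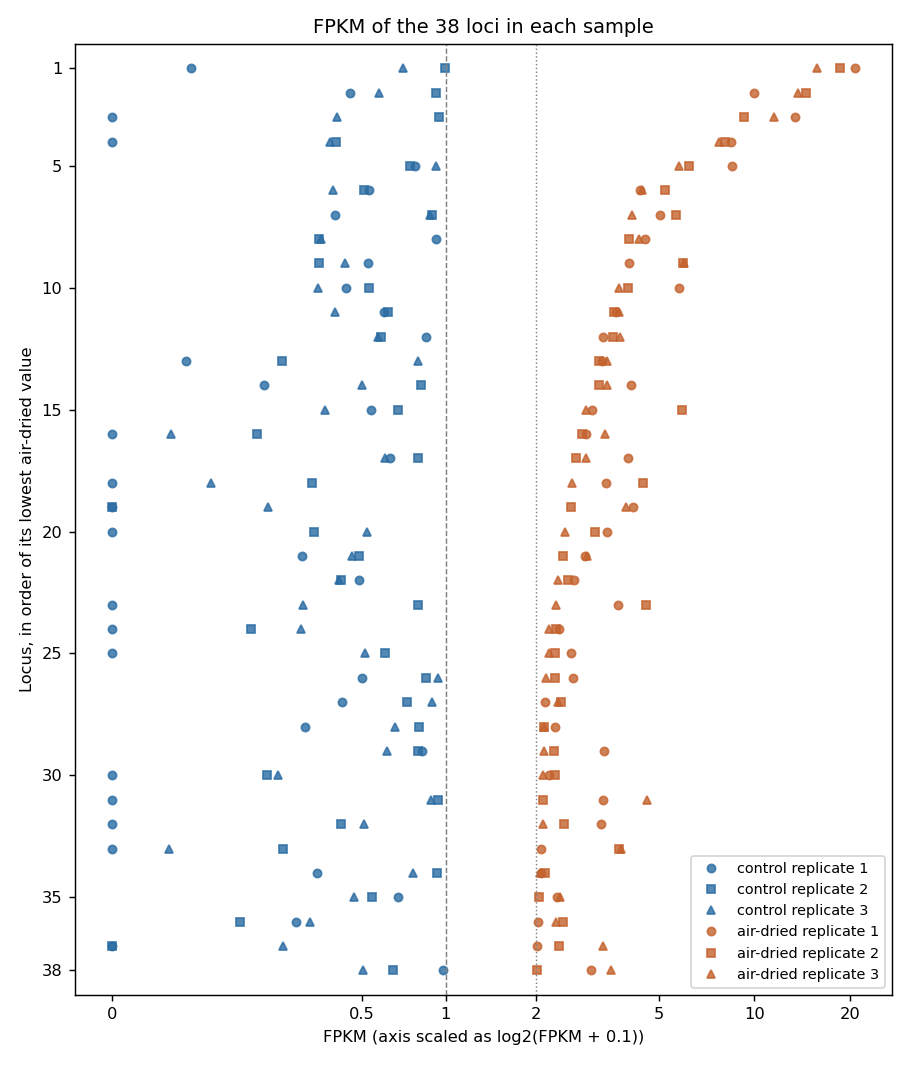
FPKM (x, scaled as log2(FPKM + 0.1)) of each of the 38 loci (y, in order of the lowest air-dried value) in the 3 control samples (blue) and the 3 air-dried samples (orange), with marker shapes for replicates 1, 2 and 3; dashed and dotted lines mark 1 and 2 FPKM. The groups are separate at every locus because the choice of loci required it (every air-dried value exceeded every control value in 17% of all tested loci); 14 loci lie at 0 in control replicate 1, and only the first 5 loci have every air-dried value above 5 FPKM.

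The spread between air-dried samples at these loci was somewhat wider than at mid-level loci. The median coefficient of variation between air-dried replicates was 13.1%, against 9.84% over 10887 loci with means of 2 to 20 FPKM in both groups. Those loci were at a higher level, with a median air-dried mean of 8.34 FPKM against 3.24 FPKM for the 38. Over all loci of at least 300 bases the median coefficient was 12.6%. The rule also cut the air-dried values of the 38 loci at 2 FPKM. The median ratio of highest to lowest air-dried value was 1.29. Summed over the 38 loci, FPKM was 167, 162 and 156 in air-dried replicates 1, 2 and 3 and 12.1, 21.0 and 18.6 in control replicates 1, 2 and 3. The low sum of control replicate 1 goes with its 14 loci listed at 0.

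Across all loci, limma on log2(FPKM + 1) with Benjamini-Hochberg adjustment called 1548 of 22835 tested loci (6.78%) at an adjusted p under 0.05, 951 of them as rises, or 4.16% of those tested. Leaving out a single library gave 636 calls over all loci (control replicate 2), 890 (control replicate 3), 523 (air-dried replicate 1), 373 (air-dried replicate 2) or 387 (air-dried replicate 3). All 38 loci met the minimum mean of 1 FPKM for this test by construction, and 37 were called as rises; since the same values chose them, nothing is read from this count. With the replicate number as a block 5 were called. Without air-dried replicate 1, 2 or 3 the count was 20, 13 and 15, and without control replicate 2 it was 24. The median log2 fold change of the 38 was 1.63, against 0.0066 over all tested loci.

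The choice was also repeated without some of the samples, and the values in the samples left out were read. The rule was applied to replicates of 2 numbers in each group, and the control and air-dried samples left out were then read. With replicates 1 left out, 54 loci were chosen. In the left-out samples 49 of them were higher in the air-dried sample (90.7%), with a median of 2.90 FPKM against 0.282 FPKM in the control, and 38 (70.4%) met both limits. With replicates 2 left out, 54 of 60 were higher in the left-out air-dried sample (90.0%), with medians of 2.70 and 0.724 FPKM, and 63.3% met both limits. With replicates 3 left out, 73 of 79 were higher (92.4%), with medians of 2.93 and 0.871 FPKM, and 48.1% met both limits. The loci that met both limits were the 38 themselves each time. Their own left-out values had been used by the full rule, so their direction there was fixed in advance. That holds for 38 of the 54, 60 and 79 loci. The shares of 90.0% to 92.4% were thus in good part set by the rule. These shares describe the repeated choices and are no separate support for the 38. The left-out control was under 1 FPKM in 49 of 54, 45 of 60 and 45 of 79 loci, and the left-out air-dried sample reached 2 FPKM in 43, 50 and 68 of them. Each choice compares 1 sample with 1 sample, so no test is given.

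**Figure D3:**
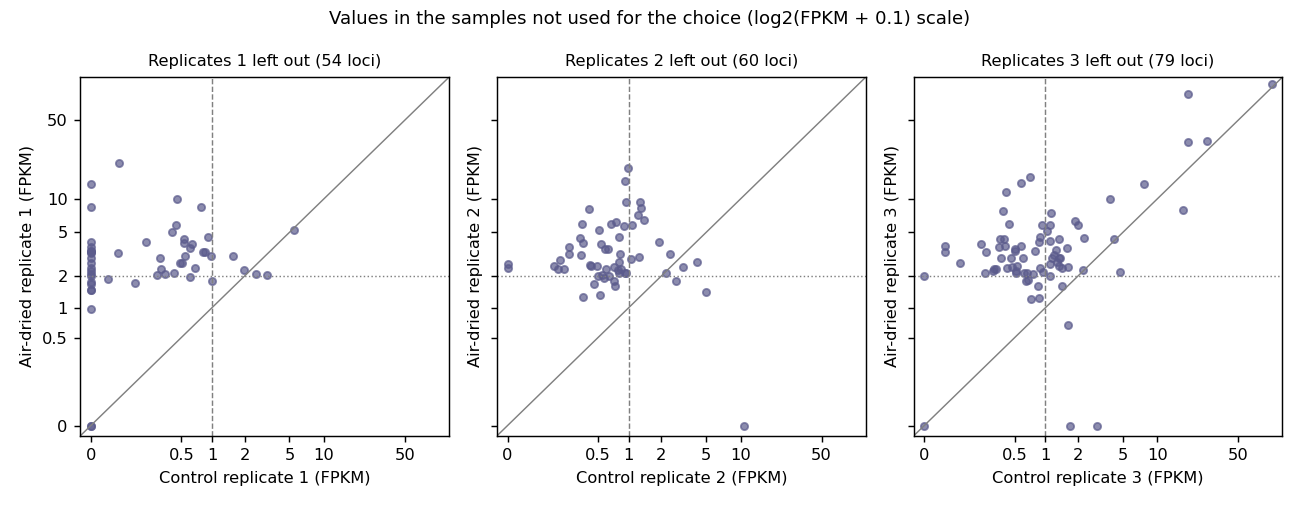
Each panel shows loci chosen without the replicates of 1 number, placed by their FPKM in the left-out control (x) and the left-out air-dried sample (y), both on a log2(FPKM + 0.1) scale; the diagonal marks equal values, and dashed and dotted lines 1 and 2 FPKM. Most points lie above the diagonal (49 of 54, 54 of 60 and 73 of 79), where the 38 loci, present in every panel, lie by choice. In the right-hand panel, with replicates 3 left out, 45 of 79 lie left of 1 FPKM.

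The mirrored rule was treated the same way. Loci chosen as lower in air-dried leaves numbered 52, 32 and 45 with replicates 1, 2 and 3 left out, and 75%, 90.6% and 82.2% of them were higher in the left-out control. The full mirrored rule had fixed the direction of 20 loci in each of these choices, against 38 in each choice of 54, 60 and 79 above. The shares of the 2 directions therefore hold unlike fixed parts and cannot be set against each other. Whether the directions differ was not tested, and the departure of control replicate 1 touches both.

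Loci just outside the limits show how sharp the choice was. There were 72 loci that met 5 of the 6 limits. Of these, 47 failed in a control, 30 of them in control replicate 3, 12 in replicate 2 and 5 in replicate 1, and 25 failed in an air-dried sample. The highest control value among the 38 loci was 0.990 FPKM and the lowest failing one 1.03 FPKM. The lowest air-dried value was 2.01 FPKM and the highest failing one 1.995 FPKM. Of the 30 that failed in control replicate 3, 8 were listed at 0 in both other controls.

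Apart from the minimum span of 300 bases, which all loci compared here met, the rule did not use the build of the loci. The median span was 1396 bases, with quartiles of 1077 and 2297 bases, against 3870 bases for loci with means of 2 to 20 FPKM in both groups and 1273 bases for 14778 loci under 1 FPKM in all 6 samples. A single transcript made up 26 of the 38 (68.4%), against 22.4% of the mid-level loci and 92.4% of those under 1 FPKM throughout. The 20 mirrored loci had a median span of 1575 bases, and 45% of them had a single transcript. By both measures the 38 loci lay between the mid-level and the silent loci, nearer to the silent ones. The mid-level loci were at a higher level than the 38, and what part the level has in these measures was not tested.

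By annotation, 29 of the 38 (76.3%) were annotated models without added transcripts, 7 (18.4%) were models to which new transcripts had been added, 2 merged several annotated models, and 0 were wholly new. Of the mid-level loci 21.2% were annotated models alone and 66.8% had added transcripts. Of the 20 mirrored loci, 9 were annotated models alone and 11 had added transcripts. Of the loci under 1 FPKM throughout, 5.68% had added transcripts, so this share moved with expression level; what part the level has in the shares of the 38 loci was not tested.

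**Figure D4:**
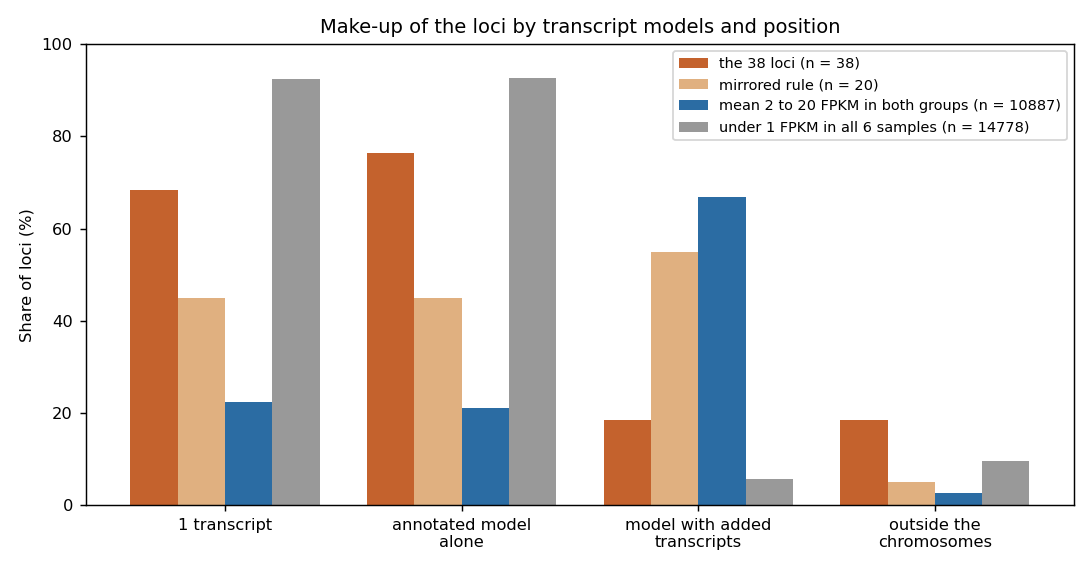
Share of loci (y, %) with 1 transcript, with an annotated model alone, with added transcripts, or on sequences outside the chromosomes, for the 38 loci (orange), the 20 loci of the mirrored rule (light), loci with means of 2 to 20 FPKM in both groups (blue) and loci under 1 FPKM in all 6 samples (grey). The 38 loci lie between the blue and grey bars in the first 3 sets, and have the tallest bar, 18.4%, for sequences outside the chromosomes.

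The 38 loci lay on 14 chromosomes and on 6 other sequences, 22 on the plus and 16 on the minus strand. The other sequences held 7 of the 38 (18.4%), against 2.76% of mid-level loci, 9.67% of loci under 1 FPKM throughout and 1 of the 20 mirrored loci. Besides scaffold_815, with 2 loci, these were scaffold_22, scaffold_1939, scaffold_864, scaffold_554 (4182 to 6864) and scaffold_200 (2389 to 21160).

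Transcript make-up within a locus could be read in the 12 of the 38 loci with more than 1 transcript. In a 6966-base locus of chromosome 6 (18074879 to 18081844, minus strand), whose values were 0.488, 0.416 and 0.410 FPKM in the controls and 2.65, 2.54 and 2.36 FPKM in the air-dried samples, the annotated transcript held 0.0342%, 0.0526% and 0.000763% of the FPKM in the controls, by replicate number, and 8.75%, 62.7% and 100% after air-drying. The new transcript thus held nearly all of the control level, and the air-dried samples, close in their sums, differed widely in the split. The share of the annotated transcript was higher in each air-dried sample than in any control, and no test was made of it. The 2 transcripts spanned 6932 and 6966 bases from the same start, and the fragments that tell them apart were not counted. This locus was picked after its values were seen, so no change of transcript is read from the split. A chromosome 1 locus (10337710 to 10340900) was the opposite case: its new transcript carried practically all of the FPKM in each air-dried sample, 2.21, 2.31 and 2.11 FPKM, and the annotated one was near 0. With annotated transcripts alone, 32 of the 38 loci still met the rule.

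Neighbouring loci were read as a further measure outside the rule. For the 38 loci there were 66 neighbours of at least 300 bases, the closest on each side without overlap, that were not among the 38. Of these, 17 were listed at 0 in all 6 samples, 27 had means under 1 FPKM in both groups, and 23 had at least 10 FPKM in the control mean. For scale, 14778 of all 38437 loci of at least 300 bases were under 1 FPKM in all 6 samples, a stricter limit than one on means. The 38 loci lay beside both silent and well expressed ones, and no excess of either is read from these counts. Over the 39 neighbours with a mean of at least 1 FPKM, the median difference on the log2(mean FPKM + 1) scale was 0.0076, so most neighbours showed little difference where the 38 loci rose.

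Among the 39 tested neighbours 5 were called as rises (12.8%) and 0 as falls, where 4.16% and 2.61% of all tested loci were called as rises and falls. By size, 2 of the 39 (5.13%) had an air-dried mean at least 2 times the control mean. The same share was 3.86% over all loci of at least 300 bases with a mean of at least 1 FPKM. No test was made of these shares, and no excess among neighbours is read from them. Of the called neighbours, 1 stood out by size. On chromosome 1, a locus (12224379 to 12225678) 12.8 kb after one of the 38 and on the opposite strand had 14.6, 14.2 and 14.6 FPKM in the controls and 110, 120 and 115 FPKM in the air-dried samples. It rose from 14.4 ± 0.252 to 115 ± 5.03 FPKM (SD over 3 samples), a log2 fold change of 2.91 with an SE of 0.06 in limma (adjusted p = 0.000237), and stayed called without any 1 library and with the replicate block (adjusted p = 0.0223). Its neighbour among the 38 (12210536 to 12211618, minus strand) had 0, 0.609 and 0.516 FPKM in the controls and 2.61, 2.32 and 2.20 FPKM in the air-dried samples.

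On chromosome 5, the locus 6471 bases after the one at 16355550 (16363049 to 16364216, same strand) missed the rule only through control replicate 2. It had 0.154, 1.23 and 0.874 FPKM in the controls and 7.26, 7.13 and 6.73 FPKM in the air-dried samples (log2 fold change 2.25 with an SE of 0.26 in limma, adjusted p = 0.0104). The call ended without air-dried replicate 1, 2 or 3 (adjusted p = 0.0579, 0.0689 and 0.0638) and with the replicate block (0.0638). The control values of both loci were low and their air-dried values several times higher, in every sample.

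The other called neighbours changed less. On chromosome 13, the locus 45.2 kb before one of the 38 went from 15.5 ± 0.866 to 22.2 ± 0.978 FPKM (a limma log2 change of 0.49, adjusted p = 0.0202), and the locus 10.2 kb after it from 3.14 ± 0.492 to 6.08 ± 0.433 FPKM (0.78, adjusted p = 0.0245). The near silent locus between them (7103668 to 7104518) had 0.977, 0.652 and 0.505 FPKM in the controls and 3.02, 2.01 and 3.51 FPKM in the air-dried samples. On chromosome 2, a locus 11020 bases before another (142054 to 142946) went from 7.46 ± 1.45 to 13.7 ± 0.457 FPKM (0.81, adjusted p = 0.0332). Each of these calls ended without any of the air-dried replicates (adjusted p = 0.0847 to 0.149) and with the replicate block (0.0956 to 0.120). They also ended without control replicate 2 for both chromosome 13 loci (0.0651 and 0.0935), and without control replicate 3 for the first of these (0.0621) and the chromosome 2 locus (0.0847). A limma term for the 2 library sets ended the calls of the second chromosome 13 locus (adjusted p = 0.0617) and the chromosome 2 locus (0.0744).

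**Figure D5:**
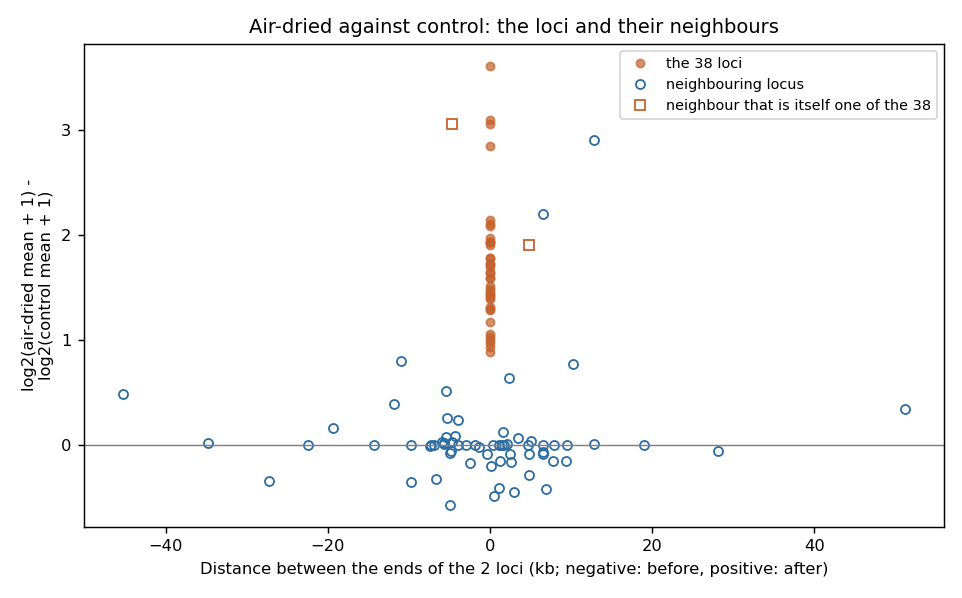
Difference of group means on the log2(mean FPKM + 1) scale (y, air-dried minus control) for the 38 loci (filled, drawn at 0) and for the closest locus of at least 300 bases on each side (open), against the distance between their ends (x, kb). The 38 loci lie above 0 by choice; apart from the pair on scaffold_815, drawn as squares, neighbours near 0 prevail, and 2 open circles lie above 2.

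The kit does not mark strand, so overlapping loci on opposite strands share reads. Only 2 of the 38 loci (5.26%) overlapped another locus of at least 300 bases, against 14.8% of all such loci. These were the chromosome 7 locus and the one on scaffold_200, which had 0.423, 0.729 and 0.892 FPKM in the controls and 2.13, 2.42 and 2.36 FPKM in the air-dried samples. An opposite-strand locus covered 37.9% of the span on scaffold_200, with 0, 5.37 and 6.10 FPKM in the controls and 12.2, 1.88 and 6.11 FPKM in the air-dried samples. The other 36 loci shared no span with another such locus.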

How the data were processed

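Poly(A) RNA of 6 leaf samples was made into TruSeq libraries and sequenced as 100 bp read pairs, per the labels' protocols. Per the file headers, the authors deposited 1 FPKM value per transcript and sample. FastQC, TopHat and Cufflinks are named in the submitters' processing notes; the sources used here give no version, build or annotation. FPKM of 112919 transcripts was summed over 40537 loci. Read counts were not used, so relative depth was taken from ratios of low values (above 0.01 FPKM, 2 values summing to under 0.6) at single-transcript loci of at least 600 bases.

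The loci, lists and comparisons were chosen with earlier results of these data known. The choice is a threshold, so no test was made on it. The fit across all loci was limma 3.58.1 in R 4.3.3 on log2(FPKM + 1) with a variance trend, over loci averaging 1 FPKM or more, called at an adjusted p under 0.05, tested on simulated data. Its p-values measure the spread between samples not stated to be separate plants, which may be technical. Loci were ordered by their lowest air-dried value, and the planned naming took the first with a gene name; the files give 0 gene names, so 2 identifiers and the first 15 loci by position took their place, as planned for this case, and the planned gene lists could not be applied. Loci below the 15th that are given by position were chosen after their values were seen. Alternatives covered limits, pseudocount, filter, scaling, trend, weights, span, replicate block and each sample left out; the library sets and loci without overlap were added after the data were seen.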

Additional observations from a re-analysis of the deposited data

How the results depend on the processing

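The count of 38 loci depended on its limits by construction: it was 11 with a control limit of 0.5 FPKM, 164 with 2 FPKM, 138 with an air-dried limit of 1 FPKM and 5 with 5 FPKM. Transcripts in place of loci gave 107 transcripts, and each library set alone gave 152 (control replicates 1 and 2 with air-dried replicate 1) and 84 (control replicate 3 with air-dried replicates 2 and 3). It was 43 to 68 with 1 library left out, the highest without control replicate 3. In the left-out samples, the share that met both limits was 48.1% with replicates 3 left out, 63.3% with replicates 2 and 70.4% with replicates 1. Over all loci 1548 were called, 3371 with array weights, and 373 to 1683 with 1 library left out. Of the 38 loci 37 were called, 14 of the 14 that pass a minimum mean of 2 FPKM, and 13 to 36 with 1 library left out. With the replicate number as a block, 281 loci and 5 of the 38 were called. A term for the 2 library sets gave 1263 loci and 28 of the 38. Samples with the same number deviated together with correlations of 0.0253, -0.0646 and 0.0499, and samples with unlike numbers with -0.141 to 0.137. With 3 samples per group, these values cannot show whether a shared number marks a pairing. The log2 fold changes of the first 15 loci ranged from 1.39 to 5.10 over 149 recomputed values, and their sign was fixed by the choice of loci. The highest came from a pseudocount of 0.1 in place of 1, which raised all 15, the first locus from 3.645 to 5.10. The size of these fold changes thus depends on the pseudocount. Depth was not given, so whether a control value near 0 is silence cannot be told apart from a failed estimate.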
